A study of Mus musculus with 16 samples.

Results

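Motile cilia genes encode the parts of the beating axoneme and the factors that switch those parts on, and 44 of them were followed here in whole mouse lung. A gene was a member where its name in the array files was 1 of these 44 names, and the brightest probe that passed the filter on dim probes stood for it. The array carried 72 probes for the 44 genes among 55681 probes in all. Of these, 63 passed, and they measured 42 members among 25575 genes tested. The other two, the inner arm heavy chain gene Dnah3 and the tektin gene Tekt3, had 1 probe each, which was well above background on 0 and 1 of the 16 arrays. The 42 probes used were well above background on all 16 arrays, so no member entered through a single group.

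RNA of female mouse lungs was labelled with a single dye and hybridised to 16 arrays, 1 per sample, in 5 groups. ARF-DTR mice carry the diphtheria toxin (DT) receptor driven by the promoter of Arf, which the Cdkn2a locus encodes and which senescent cells switch on, so DT can kill cells of any type that use this promoter. The groups were 12-month ARF-DTR mice injected with DT (4 samples), 12-month ARF-DTR mice injected with buffered saline, PBS (4 samples), uninjected 2-month ARF-DTR mice (4 samples), 12-month wild type mice injected with DT (2 samples) and 12-month wild type mice injected with PBS (2 samples). DT was given into the peritoneum at 50 microgram per kg at an interval of 2 weeks for 1 month. Age and injection went together in the comparison of 12-month PBS with 2-month mice. In whole lung, fewer ciliated cells and less RNA per ciliated cell cannot be told apart.

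A motile cilium bends because dynein motors on its outer doublet microtubules walk along the neighbouring doublet. The outer arms set the beat frequency and the inner arms its shape, while the radial spokes and the central pair pass on the signals that switch the motors in turn. In the lung these genes are active above all in the multiciliated cells of the airway epithelium, where they move mucus. Foxj1 is the master regulator of the motile programme, and the RFX factors act with it on a promoter element called the X-box. Inherited loss of many of these parts causes primary ciliary dyskinesia in humans.

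The members fell into 8 classes by role. There were 3 regulators (Foxj1, Rfx2, Rfx3), 7 outer arm genes (Dnah5, Dnah8, Dnah9, Dnah11, Dnaic1, Dnaic2, Dnal1) and 8 inner arm genes (Dnah1, Dnah2, Dnah3, Dnah6, Dnah7a, Dnah10, Dnah12, Dnali1). Another 7 served docking, assembly or spacing of the arms (Armc4, Zmynd10, Ccdc39, Ccdc40, Drc1, Efcab1, Ccdc113). The radial spoke class (Rsph1, Rsph4a, Rsph9, Lrrc23, Ropn1l) and the central pair class (Hydin, Spag6, Spag16, Spag17, Spef2) had 5 genes each, and there were 4 tektins (Tekt1 to Tekt4), which are filament proteins inside the doublets. The last class held 5 other genes of ciliated cells (Cdhr3, Ak7, Ak8, Armc3, Tppp3).

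Since the X-box is read by the RFX factors, the promoters of all members, Rfx2 and Rfx3 included, were searched for its core letters, GTTGCC, on both strands. RefSeq promoters (GRCm38.p6), from 250 bases before to 50 after the start, matched 37 of the 44 members. The core letters lay in 18 of them (48.6%), against 14.1% of all 27025 genes with a promoter. A loose paired form of the RFX motif, which can overlap the core letters, was in 10 members (27%) and in 5.26% of genes. A strict paired form, which contains them, was in 0 members and in 0.355% of genes, and the forkhead letters GTAAACA were in 2 members (5.41%) and in 4.05% of genes. A match of letters describes these windows and shows no binding. The 100 bases before the start are shown for 1 member of each of the 7 classes that had the core letters there, namely the member with the largest change between DT and PBS in ARF-DTR mice, with the core letters or their reverse complement in capitals.
Hydin (central pair, chr8:110266877-110266976, plus strand): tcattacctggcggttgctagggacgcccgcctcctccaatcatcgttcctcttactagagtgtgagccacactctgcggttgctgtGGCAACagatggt
Drc1 (docking, assembly and spacing, chr5:30281293-30281392, plus strand): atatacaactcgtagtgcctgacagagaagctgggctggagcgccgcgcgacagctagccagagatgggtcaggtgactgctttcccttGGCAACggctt
Dnah10 (inner arm, chr5:124724985-124725084, plus strand): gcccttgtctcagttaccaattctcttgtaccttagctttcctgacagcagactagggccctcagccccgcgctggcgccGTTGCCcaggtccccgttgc
Cdhr3 (other ciliated cell gene, chr12:33092876-33092975, minus strand): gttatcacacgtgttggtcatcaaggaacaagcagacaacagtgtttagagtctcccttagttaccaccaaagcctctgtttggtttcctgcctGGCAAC
Dnaic2 (outer arm, chr11:114727319-114727418, plus strand): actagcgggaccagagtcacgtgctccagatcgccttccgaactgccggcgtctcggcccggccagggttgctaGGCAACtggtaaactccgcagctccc
Ropn1l (radial spoke, chr15:31453690-31453789, minus strand): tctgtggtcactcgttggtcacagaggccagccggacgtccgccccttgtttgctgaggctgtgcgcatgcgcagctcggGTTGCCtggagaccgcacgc
Tekt1 (tektin, chr11:72361883-72361982, minus strand): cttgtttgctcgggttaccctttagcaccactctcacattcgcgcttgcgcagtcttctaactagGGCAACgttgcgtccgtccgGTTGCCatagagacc
In these windows the capitals begin between 6 and 26 bases before the start, except the first of the 2 in Tekt1. The measured members with and without the core letters had similar medians. Between DT and PBS in ARF-DTR mice the median log2 change was -0.42 over the 18 with them and -0.53 over the 18 without them. Of these, 8 and 12 were called lower, where 13.5% of all genes were. For DT-treated ARF-DTR lungs against wild type PBS lungs the medians were -0.76 and -0.70. There 10 and 7 were called lower, where 3.4% of all genes were.

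The 75th percentile of an array's probe signals, which was subtracted on the log2 scale, ranged over 612.8 to 1088 intensity units, and 55.6% to 66.9% of probes were well above background. The arrays filled 2 slides. Slide 1 held the 12-month PBS and 2-month ARF-DTR samples, and slide 2 those of DT-treated ARF-DTR mice and of both wild type groups. DT against PBS in ARF-DTR mice therefore crossed slides, and DT and slide cannot be told apart there, while DT-treated ARF-DTR mice could be set against both wild type groups within slide 2. Wild type PBS samples gave the background for the toxin and the transgene together. How many arrays there were limits the precision, and the wild type groups had 2 each.

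**Figure D1:**
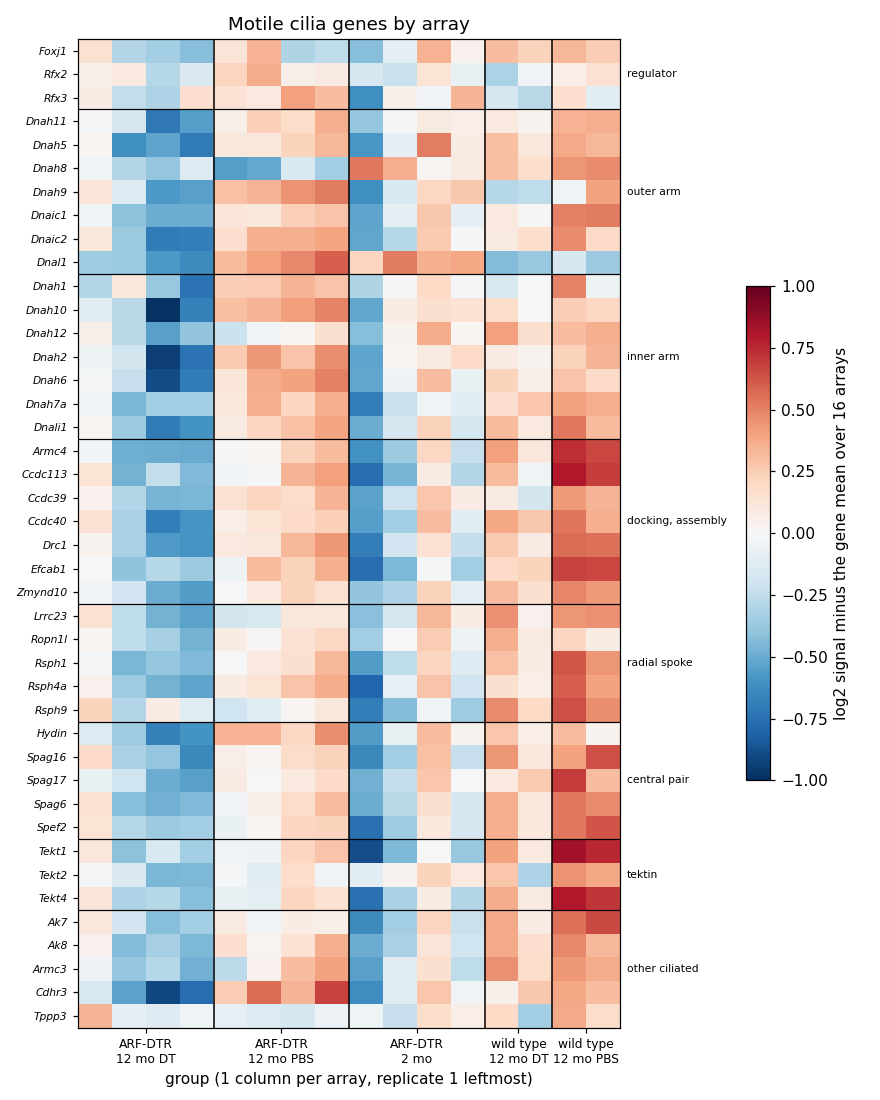
Each row is a measured member and each column an array, in the groups named under the columns, with replicate 1 leftmost in a group. Colour gives the log2 signal of the member minus its mean over the 16 arrays. The DT-treated ARF-DTR columns are mostly blue except replicate 1, the wild type PBS columns are mostly red, and Dnah8 runs against the other rows on slide 1.

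In DT-treated ARF-DTR lungs many motile cilia genes were lower than in PBS-treated ARF-DTR lungs and than in wild type PBS lungs. Against PBS in ARF-DTR mice, 24 of the 42 members fell and 0 rose at an adjusted p under 0.05 (limma, over all genes), where 13.5% of all genes fell. The members' median log2 change was -0.47, beside 0.00 over all genes, and 39 of 42 had a negative sign. In 21 members all 4 DT arrays lay below all 4 PBS arrays, as did 14.8% of all genes. Leaving out DT replicate 1 gave 29 members that fell, while the count was 12 without DT replicate 3 or DT replicate 4 and 14 without PBS replicate 4.

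On slide 2, against wild type PBS lungs, 20 of 42 members were lower in DT-treated ARF-DTR lungs and 0 higher, where 3.4% of all genes were lower. The median was -0.74, beside 0.00 over all genes, and all 42 had a negative sign. In 36 members the 4 DT-treated ARF-DTR arrays lay below both wild type PBS arrays, as did 17.8% of all genes. Both comparisons used the same 4 DT arrays. Here the count rested on few arrays: it was 30 without DT replicate 1, 7 without DT replicate 3, 6 without DT replicate 4 and 0 without either wild type PBS array, while the median stayed between -0.87 and -0.67. It was also 3 in a fit of these 2 groups alone.

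Against wild type lungs that had also received DT, 0 of 42 members passed by limma, in a comparison in which 0.888% of all genes did. At an unadjusted p under 0.05, 31 members were lower and 0 higher, where 6.31% of all genes were lower. The median was -0.50, and in 24 members all ARF-DTR arrays lay below both wild type arrays, as did 10.2% of all genes. The largest difference among them was -0.75 ± 0.23 (SE, adjusted p = 0.134), in Cdhr3.

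**Figure D2:**
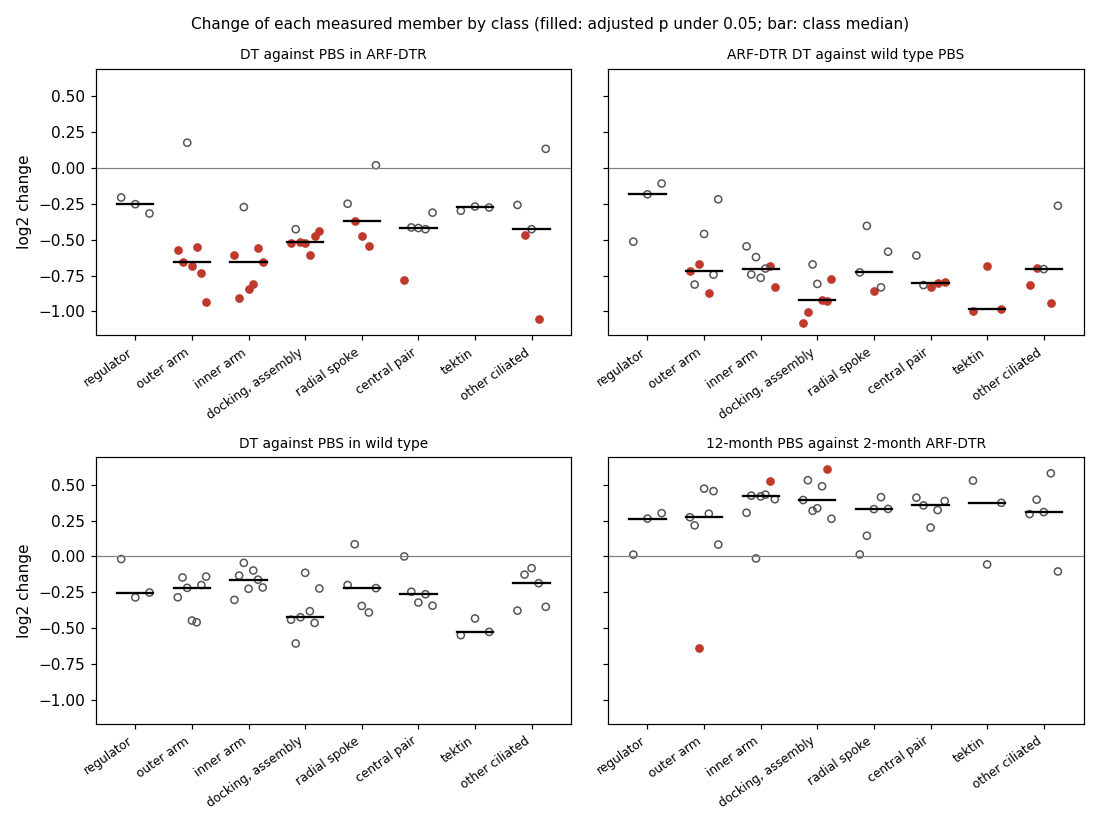
Each point is the log2 change of a measured member, by class, in 4 comparisons. Filled points passed an adjusted p under 0.05 and the bar is the class median. Against PBS in ARF-DTR mice both dynein arm classes have medians of -0.66 and the tektins -0.27, while against wild type PBS the tektins have the lowest class median, -0.98, and the regulators the highest, -0.18.

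Among the regulators, Foxj1, which turns on the motile programme, had log2 signals, relative to the array's 75th percentile, of 2.47, 2.02, 1.98 and 1.90 in DT-treated ARF-DTR lungs, against 2.45, 2.66, 2.02 and 2.06 in PBS-treated ARF-DTR lungs. Wild type lungs had 2.63 and 2.55 with DT and 2.65 and 2.57 with PBS. The ARF-DTR groups overlapped, with DT replicate 1 above 3 of the 4 PBS arrays. The DT change of Foxj1 was -0.20 ± 0.18 (SE, adjusted p = 0.414), and that against wild type PBS -0.51 ± 0.22 (adjusted p = 0.191).

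Rfx2, an RFX factor of ciliated cells, had -3.05, -3.00, -3.38 and -3.24 in DT-treated ARF-DTR lungs, against -2.88, -2.73, -3.04 and -3.01 in PBS-treated ones. The groups overlapped, since DT replicate 2 was above 2 of the PBS arrays, and the change was -0.25 ± 0.11 (adjusted p = 0.102). Rfx3, another RFX factor, had -3.41, -3.73, -3.80 and -3.32 with DT, against -3.35, -3.39, -3.08 and -3.18 with PBS. Its groups overlapped too, at a change of -0.32 ± 0.17 (adjusted p = 0.187). Set against wild type PBS, Rfx2 was at -0.18 and Rfx3 at -0.11. By the probes used, none of the 3 regulators passed in any of the 7 comparisons made. The other 2 kept probes of Rfx3 were at -0.01 and 0.00 between DT and PBS. Against wild type PBS they were at -0.59 (adjusted p = 0.0421 over all kept probes) and -0.41, where the probe used was at -0.11. Between PBS-treated ARF-DTR and wild type lungs the first of them was at -0.58 (adjusted p = 0.0165 over all kept probes).

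In the outer dynein arm, the motor complex that sets beat frequency, 6 of 7 genes fell between DT and PBS in ARF-DTR mice. The class median was -0.66, and 13.5% of all genes fell. The motor heavy chain gene Dnah5 had 1.32, 0.68, 0.77 and 0.59 in DT-treated ARF-DTR lungs, against 1.41, 1.42, 1.53 and 1.64 in PBS-treated ones. All DT arrays lay below all PBS arrays, and Dnah5 fell by 0.66 ± 0.20 on the log2 scale (1.58-fold, adjusted p = 0.0255). The heavy chain genes Dnah9 (-0.68) and Dnah11 (-0.57) and the intermediate chain genes Dnaic1 (-0.55) and Dnaic2 (-0.73) fell as well, with adjusted p between 0.0111 and 0.0205. Against wild type PBS 3 of the 7 were lower, Dnah11 (-0.71), Dnaic1 (-0.87) and Dnah8 (-0.67), where 3.4% of all genes were. The class median there was -0.71. Dnah11 did not pass without the filter on dim probes (adjusted p = 0.0513).

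Dnal1, the light chain gene of the outer arm motor, had -1.67, -1.69, -1.89 and -1.94 in DT-treated ARF-DTR lungs, against -1.0, -0.90, -0.84 and -0.71 in PBS-treated ARF-DTR lungs. It had -1.10, -0.79, -0.96 and -0.93 at 2 months, -1.75 and -1.70 in wild type lungs with DT and -1.48 and -1.68 in wild type lungs with PBS. All arrays of slide 2 were thus below all arrays of slide 1, whatever the genotype or injection. Between DT and PBS in ARF-DTR mice it fell by 0.94 ± 0.09 (1.91-fold, adjusted p = 2.82e-05), between ARF-DTR and wild type PBS lungs it was higher by 0.72 ± 0.11 (adjusted p = 0.00111), and on slide 2 it was at -0.22 ± 0.11 against wild type PBS (adjusted p = 0.261).

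Dnah8, a heavy chain gene known above all from testis, went against the class. It had 1.04, 0.79, 0.69 and 0.95 in DT-treated ARF-DTR lungs, 0.53, 0.57, 0.93 and 0.73 in PBS-treated ARF-DTR lungs and 1.61, 1.44, 1.11 and 1.17 at 2 months. Wild type lungs had 1.38 and 1.25 with DT and 1.52 and 1.55 with PBS. The 12-month PBS arrays were thus the lowest as a group, below all 2-month and all wild type arrays. The change between DT and PBS was 0.18 ± 0.12 (adjusted p = 0.289). Its other 2 probes were well above background on 0 and 1 arrays, so the reading rests on a single probe at mm9 chr17:31012150-31012209.

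In the inner arm, which shapes the bend, 6 of 7 measured genes fell between DT and PBS in ARF-DTR mice. The class median was -0.66, and 13.5% of all genes fell. Dnah10, a heavy chain gene, had 1.19, 1.04, 0.32 and 0.63 in DT-treated ARF-DTR lungs, against 1.61, 1.65, 1.73 and 1.80 in PBS-treated ARF-DTR lungs. It had 0.79, 1.38, 1.47 and 1.46 at 2 months, 1.5 and 1.31 in wild type lungs with DT and 1.56 and 1.52 in wild type lungs with PBS. The 4 DT-treated ARF-DTR arrays lay below every other 12-month array, with replicate 3 the lowest. Dnah10 fell by 0.90 ± 0.18 against PBS (1.87-fold, adjusted p = 0.00342), and against wild type PBS it was at -0.74 ± 0.22 (adjusted p = 0.0699).

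The heavy chain genes Dnah2 (-0.84), Dnah6 (-0.81), Dnah1 (-0.61) and Dnah7a (-0.56) and the light intermediate chain gene Dnali1 (-0.66) fell with it. With normexp background correction Dnah1 was at -0.04 (adjusted p = 0.709). Dnah12, another inner arm heavy chain gene, was at -0.27 ± 0.16 (adjusted p = 0.215). Of its 3 other kept probes, 1 passed over all kept probes, at -0.60 (adjusted p = 0.0151), and the rest were at -0.23 and -0.34. That probe was at -1.07 against wild type PBS (adjusted p = 0.0117 over all kept probes), and the rest were at -0.61 and -0.77. Against wild type PBS, Dnah7a (-0.68, adjusted p = 0.0299) and Dnali1 (-0.83, adjusted p = 0.0333) passed, where 3.4% of all genes were lower. The class median there was -0.70.

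Of the genes for docking, assembly and spacing of the arms, 6 of 7 fell between DT and PBS in ARF-DTR mice. The class median was -0.51, and 13.5% of all genes fell. Armc4, which helps to dock the outer arm, had 0.62, 0.16, 0.15 and 0.15 in DT-treated ARF-DTR lungs, 0.66, 0.67, 0.88 and 0.96 in PBS-treated ARF-DTR lungs and 0.04, 0.28, 0.86 and 0.42 at 2 months. Wild type lungs had 1.06 and 0.76 with DT and 1.39 and 1.32 with PBS. The DT arrays lay below the PBS arrays of both genotypes, with replicate 1 far above the other 3 and close to the lowest PBS array. Armc4 fell by 0.52 ± 0.16 against PBS (adjusted p = 0.0269) and by 1.08 ± 0.20 against wild type PBS (2.12-fold, adjusted p = 0.0109).

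Zmynd10, a cytoplasmic assembly factor of the arms, fell by 0.44 against PBS and Drc1, of the nexin-dynein complex, by 0.61. Ccdc39 and Ccdc40, which form the ruler that spaces the arms along the doublet, were at -0.51 (adjusted p = 0.0266) and -0.52 (adjusted p = 0.0499). The call of Ccdc40 was lost in 12 of 17 other settings, among them median scaling (adjusted p = 0.0658) and the authors' table (adjusted p = 0.0507). Efcab1, a calcium-binding protein gene of the outer arm, fell by 0.48. Ccdc113, which was at -0.43 against PBS (adjusted p = 0.0974), was 1.0 ± 0.22 lower on the log2 scale against wild type PBS (adjusted p = 0.025). In that comparison Armc4, Zmynd10, Drc1, Efcab1 and Ccdc113 passed, where 3.4% of all genes were lower, and the class median was -0.92.

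In the radial spokes, which link the doublets to the central pair, 3 of 5 genes fell between DT and PBS in ARF-DTR mice. The class median was -0.37, and 13.5% of all genes fell. Rsph1, a spoke head gene, had 2.91, 2.48, 2.54 and 2.49 in DT-treated ARF-DTR lungs, against 2.93, 3.03, 3.09 and 3.27 in PBS-treated ones, and 3.55 and 3.38 in wild type PBS lungs. The groups did not overlap, although DT replicate 1 was just below the lowest PBS array. Rsph1 fell by 0.47 ± 0.15 against PBS (adjusted p = 0.0296) and by 0.86 ± 0.18 against wild type PBS (adjusted p = 0.02). Its second kept probe was at -0.06 and -0.75 in these comparisons, and the mean of both probes was at -0.27 against PBS (adjusted p = 0.225).

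The other spoke head gene Rsph4a (-0.55, adjusted p = 0.0429) and Ropn1l, of the spoke stalk (-0.37, adjusted p = 0.0435), passed against PBS as well. These calls were lost in 10 of 17 other settings for Rsph4a and 11 of 17 for Ropn1l, with median scaling at adjusted p = 0.055 and 0.0711. Lrrc23, another spoke gene, was at -0.25, and the spoke head gene Rsph9 at 0.02 ± 0.14 (adjusted p = 0.932). Rsph9 had 3.26, 2.75, 3.12 and 2.92 with DT, against 2.84, 2.91, 3.06 and 3.15 with PBS in ARF-DTR mice. Those groups overlapped, while both wild type PBS arrays, at 3.68 and 3.50, were above all of them. The spoke class had a median of -0.73 against wild type PBS, where Rsph1 alone of its 5 genes passed by the probes used. In that comparison 3.4% of all genes were lower. The second kept probe of Rsph4a was at -0.98 there (adjusted p = 0.00943 over all kept probes) and at -0.50 against PBS (adjusted p = 0.0172).

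Between DT and PBS in ARF-DTR mice 13.5% of all genes fell. Of the central pair genes, whose products form the axle of the beat, 1 of 5 did, at a median of -0.42. This was Hydin, a large projection protein gene, with -0.06, -0.27, -0.60 and -0.52 in DT-treated ARF-DTR lungs, against 0.43, 0.43, 0.29 and 0.54 in PBS-treated ones. The groups did not overlap, and Hydin fell by 0.78 ± 0.16 (1.72-fold, adjusted p = 0.00426). It was at -0.61 ± 0.20 against wild type PBS (adjusted p = 0.0941).

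Spag17, another central pair projection gene, had -3.15, -3.28, -3.58 and -3.63 in DT-treated ARF-DTR lungs, -3.00, -3.09, -2.99 and -2.89 in PBS-treated ARF-DTR lungs and -2.38 and -2.78 in wild type PBS lungs. The DT arrays were below all others of these groups. The change was -0.42 ± 0.16 against PBS (adjusted p = 0.0596) and -0.83 ± 0.19 against wild type PBS (adjusted p = 0.0271). Spag6 (-0.80) and Spef2 (-0.79) also passed against wild type PBS, where the class median was -0.80 and 3.4% of all genes were lower. With normexp background correction Spag17 was at -0.49 there (adjusted p = 0.0469), and Spef2 did not pass without the filter on dim probes (adjusted p = 0.052). Spag16 was at -0.82 there (adjusted p = 0.0624). Its other kept probes were at -1.15 (adjusted p = 0.0373 over all kept probes) and 0.28 (adjusted p = 0.782) in that comparison.

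For the tektins, 0 of the 3 measured passed by limma between DT and PBS in ARF-DTR mice, 0 were at an unadjusted p under 0.05, where 19.2% of all genes were lower, and the median was -0.27. Tekt1 had 2.83, 2.30, 2.57 and 2.38 in DT-treated ARF-DTR lungs, against 2.67, 2.67, 2.93 and 3.00 in PBS-treated ones. It had 1.83, 2.26, 2.72 and 2.34 at 2 months, 3.12 and 2.82 in wild type lungs with DT and 3.56 and 3.47 in wild type lungs with PBS. The ARF-DTR groups overlapped, and the wild type PBS arrays were above all 14 others. Tekt1 was at -0.30 ± 0.17 against PBS (adjusted p = 0.2) and 1.0 ± 0.21 lower on the log2 scale against wild type PBS (1.99-fold, adjusted p = 0.0188). Tekt4 (-0.98) and Tekt2 (-0.68) were lower against wild type PBS as well, where 3.4% of all genes were lower. The tektins were the class with the lowest median there, -0.98. Against wild type lungs with DT their median was -0.45, beside -0.50 over all members. Between PBS-treated ARF-DTR and wild type lungs, which lay on different slides, it was -0.70.

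Among the other genes of ciliated cells, Cdhr3, a cadherin-related receptor gene that rhinovirus C uses in humans, had 2.12, 1.75, 1.38 and 1.53 in DT-treated ARF-DTR lungs, against 2.54, 2.85, 2.63 and 2.97 in PBS-treated ARF-DTR lungs. It had 1.67, 2.19, 2.57 and 2.25 at 2 months, 2.34 and 2.56 in wild type lungs with DT and 2.68 and 2.60 in wild type lungs with PBS. The DT-treated ARF-DTR arrays were below all other 12-month arrays. Cdhr3 fell by 1.05 ± 0.19 against PBS (2.07-fold, adjusted p = 0.00179), the largest DT change of the 42 members, and by 0.94 ± 0.23 against wild type PBS (adjusted p = 0.0333). Its second kept probe, which was dimmer, did not pass in either. It was at -0.45 against PBS (adjusted p = 0.0792 over all kept probes) and at -0.54 against wild type PBS (adjusted p = 0.17).

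The adenylate kinase gene Ak8 fell by 0.47 (adjusted p = 0.023) against PBS and by 0.70 (adjusted p = 0.0333) against wild type PBS. Its probe was spotted several times, and over 6 to 10 usable spots per array the signal varied by a median of 3.02% (coefficient of variation). Ak7, another adenylate kinase gene, was at -0.26 against PBS and lower by 0.81 on the log2 scale against wild type PBS (adjusted p = 0.0303). Armc3 was at -0.43 and -0.70 and did not pass. Tppp3, a tubulin-binding protein gene that is also used as a marker of ciliated cells, was at 0.13 ± 0.13 and -0.26 ± 0.16 and did not pass either.

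**Figure D3:**
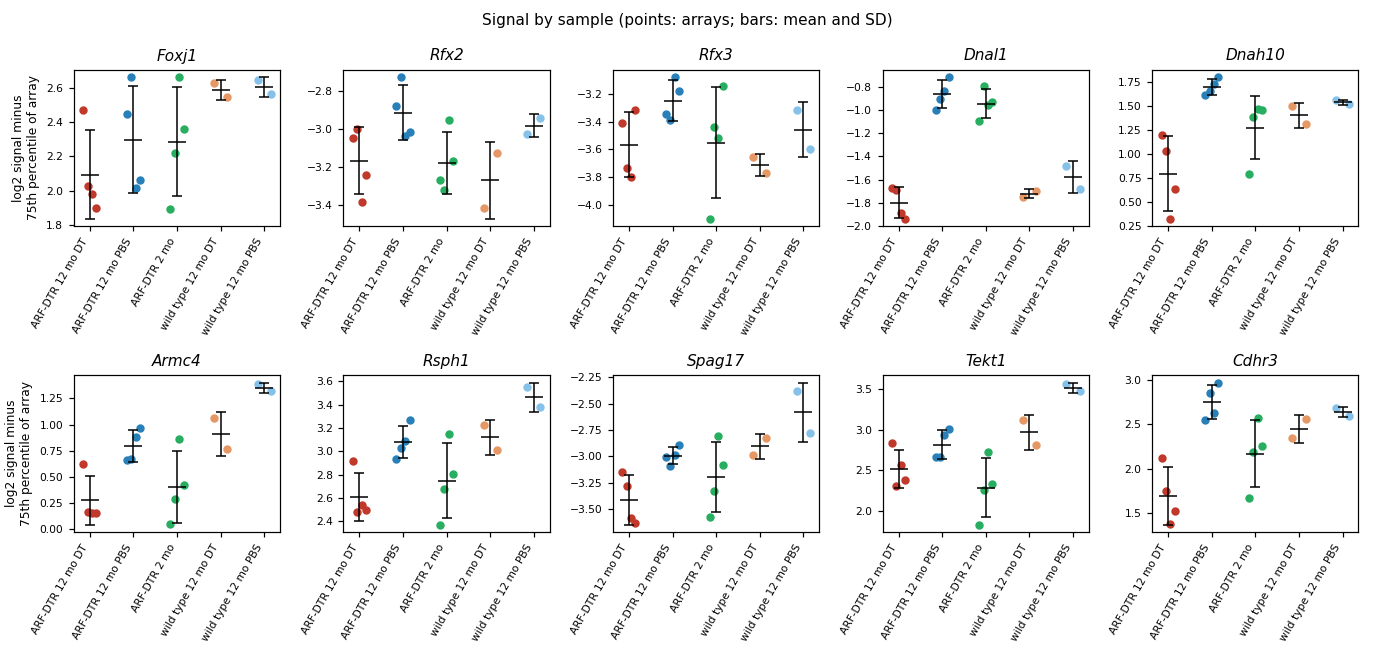
Points are arrays and bars the mean and SD of a group, on the scale of log2 signal minus the array's 75th percentile, for the 3 regulators and 1 member of each other class. Vertical axes differ between genes and do not start at 0. Dnal1 splits by slide, Armc4 and Tekt1 are highest in wild type PBS lungs, and Dnah10 and Cdhr3 are lowest in DT-treated ARF-DTR lungs.

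With age, motile cilia genes moved the other way in sign, but few passed. At 12 months with PBS against 2 months, both on slide 1, 2 of 42 members rose, where 2.73% of all genes did, and 1 fell, where 3.41% did. The median was 0.33, beside -0.03 over all genes, and 38 of 42 had a positive sign. Without 2-month replicate 1 it was 0.22. Efcab1 had -0.98, -0.62, -0.70 and -0.58 at 12 months with PBS, against -1.70, -1.38, -0.96 and -1.27 at 2 months. Its groups overlapped by a single pair of arrays, and it rose by 0.61 ± 0.14 (adjusted p = 0.023). With normexp background correction it was at 0.38 (adjusted p = 0.114). The other kept probes of Efcab1 were at 0.42 and 0.48 and did not pass over all kept probes.

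Dnah7a had 0.11, 0.36, 0.22 and 0.37 at 12 months with PBS, against -0.69, -0.22, -0.04 and -0.11 at 2 months. The groups did not overlap, and Dnah7a rose by 0.53 ± 0.13 (adjusted p = 0.0316), a call that was lost without the filter on dim probes (adjusted p = 0.0504). Its other kept probes were at 0.51, 0.28 and 0.41 and did not pass over all kept probes. Dnah8 fell by 0.64 ± 0.12 (adjusted p = 0.008), again without overlap. In 5 members all 12-month arrays lay above all 2-month arrays, against 5.02% of all genes. The count that rose was 8 without 2-month replicate 3, and 0 without 2-month replicate 1 or 2 or PBS replicate 2, 3 or 4. The age and DT comparisons share the PBS arrays, which enter them with opposite signs.

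In wild type lungs, DT against PBS gave 0 of 42 members past the threshold by limma, where 0.176% of all genes passed, and 6 at an unadjusted p under 0.05, all lower, where 7.5% of all genes were lower. The median was -0.25, beside -0.02 over all genes, and 41 of 42 had a negative sign. In 28 members both DT arrays lay below both PBS arrays, as did 24.7% of all genes. The tektins had the lowest class median, -0.53, and its 3 measured genes were among those 6. Ropn1l was the 1 member with a positive sign, 0.08.

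The test of whether DT acted differently in ARF-DTR and wild type mice, the interaction of DT and genotype, called 1 member lower, Dnal1 (-0.79 ± 0.15, adjusted p = 0.0235), where 1.26% of all genes were called lower. The median interaction was -0.18, and -0.31 without DT replicate 1 of ARF-DTR mice. This comparison crosses slides through the ARF-DTR arrays, and Dnal1 is the gene that split by slide above. Its call was lost without wild type PBS replicate 2 or wild type DT replicate 2. The other interactions ranged from -0.87 in Cdhr3 (adjusted p = 0.153) to 0.49 in Tppp3 (adjusted p = 0.234).

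Between PBS-treated lungs of ARF-DTR and wild type mice, which lay on different slides, 5 members differed by the probes used. Dnal1 was higher, where 10.9% of all genes were. Dnah8 (-0.85), Rsph9 (-0.60), Tekt1 (-0.70) and Tekt4 (-0.71) were lower, where 12.7% of all genes were. In both directions members were thus called less often than all genes. With quantile normalization Rsph9 (adjusted p = 0.0651) and Tekt1 (adjusted p = 0.0688) did not pass. Further probes of Rfx3 (-0.58), Rsph1 (-0.69) and Spag16 (-0.86) passed over all kept probes, while the probes used for these genes did not. The members' median was -0.30. In 24 members the ARF-DTR arrays lay below both wild type arrays, as did 26.8% of all genes. Genotype and slide cannot be told apart here. Without PBS replicate 1 or 2 of ARF-DTR mice 2 members were lower, and without either wild type PBS array 1 was.

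Within a group, motile cilia genes moved together from array to array. After each group's mean was taken off, the median correlation between pairs of members over the 16 arrays was 0.77. Of 861 pairs, 823 were above 0, a description in which the points share arrays and scaling. No such correlation was computed over all genes, so how far other genes moved together was not tested. DT replicate 1 was above the mean of its group in 42 of 42 members, and 2-month replicate 1 was below in 41 and 2-month replicate 3 above in 40. The median within-group SD of a member was 0.24, against 0.15 over all genes. Drc1 and Dnaic1 followed the other members most closely, with correlations of 0.98 and 0.97 with the rest, and Dnah8 (-0.18), Rfx2 (0.38) and Dnah1 (0.49) least.

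Where a member had several kept probes, these had the same sign in most members, but less often in some comparisons. There were 35 such probes over 14 members. All kept probes of a member had the same sign in 12 of 14 members between DT and PBS in ARF-DTR mice. Against wild type PBS this held in 13 of 14. It held in 10 of 14 with age, in 9 of 14 between ARF-DTR and wild type PBS lungs and in 8 of 14 for the interaction. The 35 include the probe used for each of the 14 members. Between DT and PBS in ARF-DTR mice 14 of the 35 were called lower over all kept probes, and 0 higher. Against wild type PBS 15 were called lower and 0 higher. With 1 probe per gene, 13.5% and 3.4% of all genes were lower in these comparisons, and the share over all kept probes was not computed. The 4 probes of Dnah7a, whose mouse relatives Dnah7b and Dnah7c have similar sequences, were at -0.56, -0.58, -0.44 and -0.42 against PBS, and cross-hybridisation was not tested. Both probes of Tekt1 were at -0.30 and -0.37 against PBS and at -1.0 and -1.02 against wild type PBS.

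The probes that carry these readings are 60 bases long, and 3 of them are shown as examples. The first and second are further probes of Dnah7a and Tekt1, whose readings were close to those of the probes used, and the third is the probe used for Tppp3, which did not pass in any comparison. Positions are on mm9 and letters run along the transcript.
Dnah7a (chr1:53468351-53468410, minus strand): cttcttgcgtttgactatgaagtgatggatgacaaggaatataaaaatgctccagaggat
Tekt1 (chr11:72158314-72158373, minus strand): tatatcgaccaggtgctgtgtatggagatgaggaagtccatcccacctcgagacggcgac
Tppp3 (chr8:107991755-107991814, minus strand): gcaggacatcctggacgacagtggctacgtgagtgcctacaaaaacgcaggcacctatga
The other probes are not shown, and the annotation of exons at these places was not used here. The probes used for Dnah10, Hydin, Tekt1, Cdhr3, Rsph1, Spag17 and Dnal1 lay on mm9 at chr5:125314587-125314646, chr8:113133873-113133932, chr11:72158231-72158290, chr12:33718663-33718722, chr17:31391969-31392028, chr3:99889284-99889343 and chr12:85484397-85484456.

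**Figure D4:**
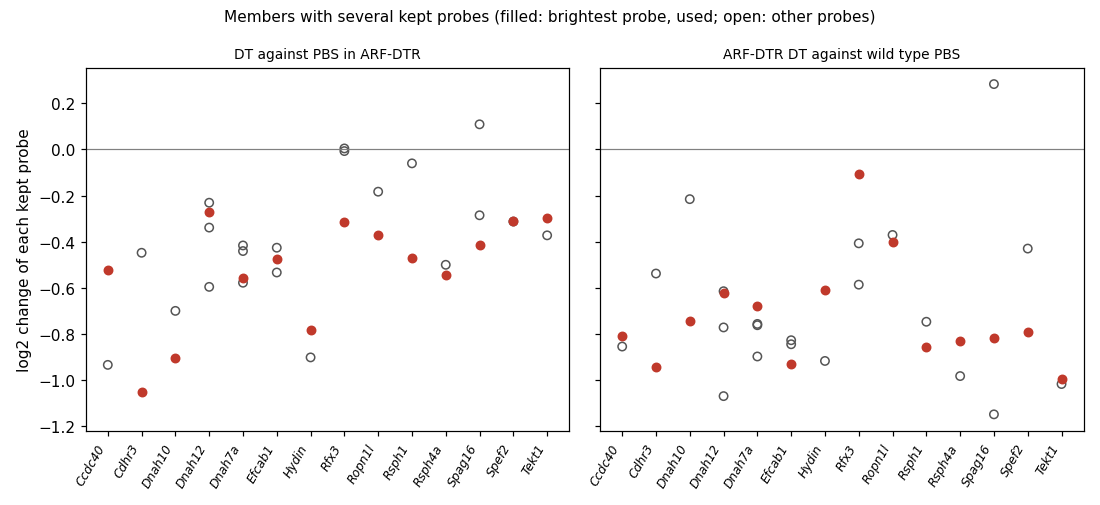
Each point is the log2 change of a kept probe, for the 14 members with several, in 2 comparisons. Filled points are the brightest probe, which stands for the gene, and open points the others. Probes of Dnah7a, Efcab1, Hydin and Tekt1 lie on the same side of 0, while a dim probe of Spag16 lies above it.

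Other genes of the same machinery were read from lists kept apart from the members. Over all genes, 13.5% fell and 15.9% rose between DT and PBS in ARF-DTR mice, and 3.4% were lower against wild type PBS. Of 12 measured genes of the nexin-dynein complex, spokes and central pair, 7 fell and 0 rose between DT and PBS in ARF-DTR mice (median -0.43), among them the kinase gene Stk36 (-0.79), the spoke gene Rsph10b (-0.61) and Iqcg (-0.58), and 3 were lower against wild type PBS (median -0.55). Of 11 dynein assembly and docking genes, 4 fell against PBS (median -0.25) and 4 were lower against wild type PBS (median -0.60). Those against wild type PBS were Ccdc151, a docking gene (-1.0), and the assembly factor genes Ccdc103 (-0.84), Dnaaf3 (-0.80) and Lrrc6 (-0.79). Of 7 other dynein chains 2 were lower in each, and Dnah14 (-0.49) was among those against PBS.

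Transport and adaptor genes are used by primary cilia as well. Of 19 genes of intraflagellar transport, which carries material along the cilium, 4 fell and 1 rose against PBS (median -0.04), with Wdr19 at -1.24 and Ift20 at 0.47, where 13.5% of all genes fell and 15.9% rose. Against wild type PBS 6 were lower, among them Ift88 (-0.64) and Ift74 (-0.54), at a median of -0.28, where 3.4% of all genes were lower. Of 9 genes of the BBSome, a cargo adaptor, 3 were lower in each comparison, with medians of -0.09 and -0.32. The multiciliation programme sets up the many basal bodies. Of its 9 measured genes, 1 fell against PBS, the p73 gene Trp73 (-0.48), where 13.5% of all genes did. Against wild type PBS 1 was lower, Myb (-0.77), where 3.4% of all genes were, and the medians were -0.14 and -0.12. Of 18 other markers of ciliated cells, 5 fell against PBS (median -0.36) and 12 were lower against wild type PBS (median -0.80), among them Lrriq1 (-1.14) and Fam183b (-1.05), and 0 rose in either.

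Marker lists of other lung cells moved on the same arrays, and their part in the members' changes was not tested. Alveolar type 2 cell markers were higher between DT and PBS in ARF-DTR mice in 10 of 10 genes (median 0.58), where 15.9% of all genes were, among them the surfactant protein gene Sftpd (0.87), while pan-epithelial markers were higher in 4 of 13 and lower in 0 (median 0.19). Of 13 club cell markers 4 were higher and 3 lower (median -0.14), where 13.5% of all genes were lower. Airway smooth muscle markers were lower in 8 of 10 (median -0.71), among them the smooth muscle actin gene Actg2 (-1.05). Against wild type PBS, 1 of the 10 type 2 markers was higher (Napsa, 0.67), where 2.12% of all genes were. There 2 of the 13 club cell markers were lower, where 3.4% of all genes were. Of the smooth muscle markers 0 passed by limma in that comparison, and 0 of the pan-epithelial markers did. At an unadjusted p under 0.05, 4 smooth muscle markers were lower, where 11.7% of all genes were, and 2 pan-epithelial markers higher, where 10.5% were.

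Markers of basal cells and large airways, which carry ciliated cells, varied widely from array to array. The median level of the 16 genes, relative to their means over all arrays, was 0.29, -1.0, -0.41 and -0.65 in DT-treated ARF-DTR lungs, 0.57, -0.55, -0.34 and 0.51 in PBS-treated ARF-DTR lungs and -1.42, -0.13, 1.57 and 0.09 at 2 months. It was 0.56 and 0.59 in wild type lungs with DT and 0.38 and 0.26 in wild type lungs with PBS. The members' median on the same arrays was 0.03, -0.30, -0.47 and -0.49 with DT, 0.08, 0.10, 0.21 and 0.31 with PBS and -0.53, -0.18, 0.21 and -0.07 at 2 months. In wild type lungs the members' median was 0.28 and 0.09 with DT and 0.45 and 0.36 with PBS. Both lists were highest in replicate 1 of the DT group, and at 2 months lowest in replicate 1 and highest in replicate 3. The other DT arrays and the PBS arrays of ARF-DTR mice were in a different order in the lists. In wild type lungs the airway list was higher with DT and the members were higher with PBS. The airway list had a median change of -0.70 between DT and PBS and of -0.75 against wild type PBS, with 0 of 16 genes past the threshold by limma in either and 1, with a positive sign, and 0 at an unadjusted p under 0.05. At that p 21.9% of all genes were higher between DT and PBS. How much airway each sample held was not recorded in the labels, and its part in the result was not tested.

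**Figure D5:**
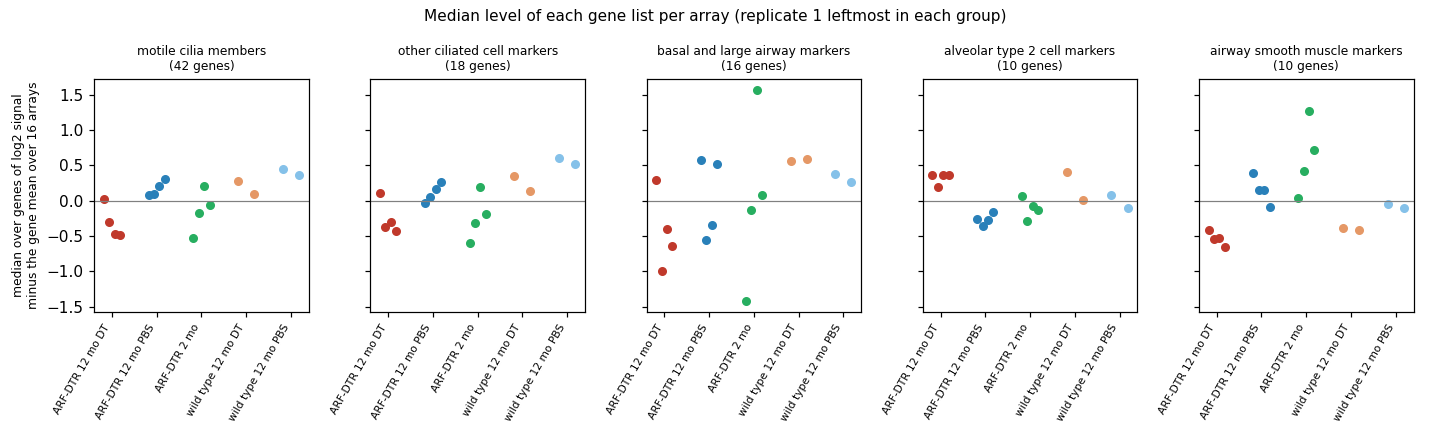
Points give, per array, the median over a list's genes of the log2 signal minus the gene's mean over 16 arrays, with replicate 1 leftmost in each group. For the motile cilia members the lowest arrays are replicates 2 to 4 of DT-treated ARF-DTR lungs and replicate 1 of the 2-month group, the airway markers spread from -1.42 to 1.57 at 2 months, and the type 2 cell markers are higher in DT-treated than in PBS-treated ARF-DTR lungs on every array.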

How the data were processed

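Lung RNA of 16 samples was measured on single-colour Agilent arrays. Scanned images were quantified in Agilent Feature Extraction, whose version was 10.10.1.1 per the submitters' processing notes. Probe positions are on mm9 per the file headers. The deposited scanner files hold intensity values, and their processed signal, from which Feature Extraction had already taken background and spatial trend, was used. The authors' series table holds log2 values, which matched the log2 signal minus the array's 75th percentile to within 0.01 for at least 99.86% of probes. Sources used here do not give other steps.

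Groups came from the sample titles. The free description of wild type PBS replicate 1 names DT, and those of wild type DT samples leave it out, but titles, source names and treatment tags did not conflict and were used. The labels do not say that samples were separate mice, so p-values measure the spread between samples, which may be technical.

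Control spots and outlier spots (105 to 171 outliers per array) were left out, 0 spots were saturated, spots of a probe were averaged, signals were log2-transformed and the array's 75th percentile was subtracted. A probe was kept if well above background on 4 or more arrays (37037 probes), and the brightest kept probe stood for a gene. The probe of Spag6 is named Spag6l in RefSeq. The test was limma's (version 3.58.1, R 4.3.3), two-sided, in a joint model of the 5 groups over all arrays, with Benjamini-Hochberg adjustment over 25575 genes. Values after ± beside a log2 change are standard errors. Levels of different probes were not compared. Slide could not be fitted as a term, since each group lay on 1 slide. The fit was tested on simulated data.

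Any member could be named. Values per sample are given for the regulators, the member of each class with the largest called change and some others chosen after their values were seen. From each other list up to 4 called genes with the largest change were taken. The members, classes and lists were chosen with earlier results of these data known. Alternatives were median scaling, quantile normalization, normexp background, no or a stricter filter on dim probes, the mean of a gene's probes, the authors' table, the groups compared alone, the replicate number as a block, and leaving out each sample.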

Additional observations from a re-analysis of the deposited data

Results flagged for a closer look

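In groups of 4 arrays, a sample was marked where its gap to the nearest other array, divided by the group's range, exceeded Dixon's critical value. Of 129 tests over the members, their median and 3 groups, 5 were marked, and chance marks about 1 group in 20. In DT-treated ARF-DTR lungs replicate 1 was the highest array by this measure for Armc4 (0.968), Spag6 (0.918), Rsph1 (0.85) and Spef2 (0.842). In 2-month lungs replicate 1 was the lowest array for Dnah10 (0.867). The DT change of Dnal1 differed between genotypes by -0.79 on the log2 scale (ARF-DTR minus wild type, limma's interaction test), in a comparison that crosses slides.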

How the results depend on the processing

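The median change of the members kept its sign in all 7 comparisons under every alternative run, and moved by less than the spread of the array medians within groups (SD 0.22). The counts were less stable. The 2 members higher with age became 1 with normexp background or without the filter on dim probes, and 0 with the mean of kept probes or in a fit of the groups compared alone. They ranged from 0 to 8 with 1 sample left out. The 24 members lower with DT in ARF-DTR mice ranged from 12 to 29 with 1 sample left out. The 20 lower against wild type PBS were 3 in a fit of those groups alone, and ranged from 0 to 30 with 1 sample left out. The 4 members lower in ARF-DTR than wild type PBS lungs were 7 with median scaling or normexp background and 12 in a fit of those groups alone, and ranged from 1 to 4 with 1 sample left out. The 1 interaction ranged from 0 to 1. Of the 24 members that fell with DT, 11 (Cdhr3, Dnah10, Dnah11, Dnah2, Dnah6, Dnah7a, Dnaic1, Dnaic2, Dnal1, Dnali1, Hydin) passed under all alternatives, as did 0 of the 20 against wild type PBS. No alternative could separate DT from slide in the comparison within ARF-DTR mice, and Dnal1 split by slide. No called member changed sign. Beyond fewer samples or genes in a fit, the cause of these moves was not tested.

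Samples with the same replicate number did not pair: the correlation of their deviations from the group means ranged from -0.20 to 0.33 over 26 pairs (median 0.06). With the number as a replicate block, 8 members were lower against wild type PBS, 20 were lower with DT in ARF-DTR mice and 1 was higher with age.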
